A study of Homo sapiens with 6 samples.

Results

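The 10 genes described here encode shelterin and telomerase: TERF1, TERF2, TERF2IP, POT1, TINF2 and ACD for the 6 proteins of shelterin, TERT, TERC and DKC1 for telomerase, and RTEL1 for a helicase that acts at telomeres. They were found by symbol among 59074 listed genes, and all 10 were in the table. The list was chosen on the measured levels and changes in these 6 libraries, so both are given as a description. Cells of 3 human glioblastoma lines, LN-229 (LNT229 in the sample titles), U251 and T98G, received for 72 h either an siPOOL, a mixture of many short interfering RNAs, against the long non-coding RNA HOTAIRM1 (siHOTAIRM1) or a non-target siPOOL (siControl), and their RNA was sequenced. With 1 library per line and condition, the 3 lines were the replicates and nothing was tested within a line. No genotype other than that of each line was given, and a response within a line rests on a single pair of cultures.

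Shelterin coats the repeats at chromosome ends. TERF1 and TERF2 bind the double-stranded repeats, POT1 binds the single-stranded overhang, TINF2 and ACD bridge these proteins, and TERF2IP (RAP1) is carried to telomeres by TERF2 and also acts away from telomeres in gene regulation and NF-κB signalling. Telomerase adds repeats with its reverse transcriptase TERT, which copies a template in the RNA TERC, and DKC1 (dyskerin) stabilises TERC and other RNAs of its class. Tumour cells need telomerase or a recombination pathway to keep their telomeres, and reactivation of TERT is common in glioblastoma. RTEL1 unwinds telomeric loops.

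The libraries held 52.3 to 103.9 M reads, as derived from the worth of 1 read in the deposited CPM (counts per M reads of a library), of which 42.9 to 67.3% lay on listed genes. HOTAIRM1 itself was lower in siHOTAIRM1 by 52.2% in LN-229, by 38.5% in T98G and by 51.1% in U251. The glioma markers VIM and CD44 were at 254 CPM or more in all libraries, and EGFR was at 44.4 CPM or more. OLIG2 reached at most 1.69 CPM in any library. In T98G, SOX2, GFAP and S100B were at or under 0.0551 CPM and NES at or under 0.956 CPM. GFAP was also low in LN-229, at 0.317 CPM in siControl and 0.298 CPM in siHOTAIRM1. Of 14 markers of immune, endothelial, epithelial and neuronal cells, 8 (PTPRC, CD3E, CD14, PECAM1, VWF, EPCAM, CDH1 and RBFOX3) reached at most 0.523 CPM, and CDH5 reached 2.83 CPM. Summed, the 14 stood at 124 against 101 CPM in LN-229, 94.0 against 68.1 CPM in T98G and 31.0 against 14.9 CPM in U251 (siControl first), with KRT18 the most abundant in LN-229 and T98G and SYT1 in U251. Of the 5 of these 14 tested with limma, SYT1 (-0.83) and CD68 (-0.62) were called lower (adjusted p under 0.05), where 1.59% of all genes were. Of the 7 glioma markers tested, 0 were called. The part of other cells in any result was not tested. In RNA of whole cultures, fewer cells with a transcript and less transcript per cell cannot be told apart.

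Since the largest change belonged to TERF2IP and part of the telomerase RNA signal was listed under a second name, the sequences at both places are shown first. TERF2IP (chromosome 16, 75647773 to 75761872, plus strand, GENCODE v44 on hg38) starts next to KARS1, the gene of lysyl-tRNA synthetase, listed under its older symbol KARS and read from the minus strand. The RefSeq starts of the pair (GRCh38.p14) lie on either side of 107 bases, printed on the strand of TERF2IP, with the match to CCGGAAG in capitals. CCGGAAG is a form of site bound by transcription factors of the ETS family, and in this strand it is read as its reverse complement. Other forms of such sites were not searched. The interval is shown because both genes start from it.
TERF2IP and KARS1, between the starts, chr16:75647666-75647772, plus strand: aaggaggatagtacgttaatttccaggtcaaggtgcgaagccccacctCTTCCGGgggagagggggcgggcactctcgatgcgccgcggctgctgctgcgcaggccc
On either strand, CCGGAAG was found in 10.3% of 35116 RefSeq promoter windows (250 bases before to 50 after a start). The 7 members in that table had 9 windows, and 4 of these held it: 1 of TERF2IP, 2 of TINF2 and 1 of RTEL1. Windows of 1 gene are not independent. Counted by gene, 3 of the 7 members held it, against 12.2% of 27305 genes. POT1, ACD, TERT and DKC1 had none. A match is a description of these letters only.

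TERC is a single exon of 541 bases in GENCODE v44 (chromosome 3, 169764520 to 169765060, minus strand). The table also lists Telomerase-vert, a row named after the vertebrate telomerase RNA family, which was looked up after its values had been seen. It covers 438 of the bases of TERC on the same strand, from 169764610 to 169765047, so most reads of the RNA belong to both rows. The position of the row in the authors' Ensembl release was not checked. The stretch around the template that TERT copies is shown on the minus strand because it lies within both rows, with the 11 template bases, 46 to 56 of TERC in RefSeq, in capitals.
Telomerase RNA, template region, chr3:169764975-169765045, minus strand: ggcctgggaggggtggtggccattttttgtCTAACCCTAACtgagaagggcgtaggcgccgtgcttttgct
The letters in capitals occur 1 time in the 451 bases of TERC.

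TERF2IP was lower after HOTAIRM1 knock-down in each cell line. Its level went from 25.2 CPM in siControl to 15.8 CPM in siHOTAIRM1 in LN-229, from 23.6 to 11.6 CPM in T98G and from 43.8 to 15.5 CPM in U251. The 3 siHOTAIRM1 libraries all lay below the 3 siControl libraries, and the lines stood closer together after knock-down than before. The reductions were 37.4% in LN-229 (fold 0.627, 95% counting interval 0.588 to 0.668), 50.8% in T98G (0.492, 0.453 to 0.534) and 64.7% in U251 (0.353, 0.331 to 0.377). Such intervals cover counting error only and not the spread between cultures.

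Changes were computed as differences of log2(CPM + 1), siHOTAIRM1 minus siControl, a scale that understates the changes of low genes. For TERF2IP the change was -0.64 in LN-229, then -0.97 for T98G and -1.44 for U251. Among the 14294 genes that averaged 1 CPM or more, these lay at percentile 0.434, 0.476 and 0.196 of each line, counted from the largest decrease. The median change of all these genes was 0.01, -0.19 and -0.03 in the same order, and relative to it TERF2IP changed by -0.65, -0.78 and -1.42. Over the lines, limma with the cell line as block gave -1.02 (SE 0.15, 95% interval -1.32 to -0.71), the tenth lowest of all genes tested. TERF2IP fell past the threshold of 0.05 (Benjamini-Hochberg over all tested genes), and no other member passed.

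Thus 1 of the 9 members tested was called lower, where 1.59% of all genes were, and 0 were called higher, where 0.413% were. At an unadjusted p under 0.05 the limma count of members was 3 of 9 (TERF2IP, TINF2 and TERT), where 18.3% of all genes were, and with the paired statistic of each gene alone it was 1, where 6.27% were. TERF2IP was 1 of 43 genes (0.301%) lower by at least 0.5 in all 3 lines. Complete separation with all siHOTAIRM1 libraries below all siControl libraries was seen for 1 of 9 members and for 1.89% of all genes. As the list was chosen on these values, nothing is read from these shares. The call of TERF2IP was lost under 6 of 12 alternatives, each leaving 0 members called. Among these were leaving out T98G, centring on the median change, no block and no filter on mean CPM. The others were the paired statistic of each gene alone and rescaling without RNAs lacking a poly(A) tail.

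**Figure D1:**
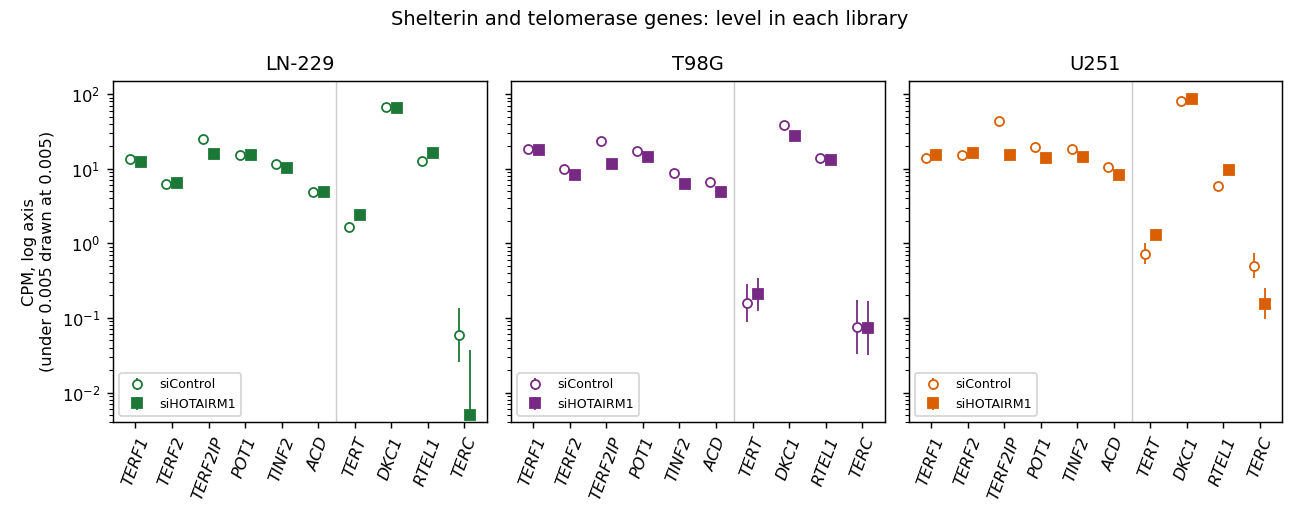
Level of the 10 genes in CPM (log axis) in the siControl (open circles) and siHOTAIRM1 (filled squares) library of each cell line, with 95% Wilson intervals of the reads. TERF2IP dropped from 25.2 to 15.8, 23.6 to 11.6 and 43.8 to 15.5 CPM, DKC1 was the most abundant in CPM, and TERT and the TERC row were the lowest.

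In U251 and T98G, other features of the libraries moved along with the conditions. The share of reads on listed genes went from 67.3 to 55.9% in U251 and from 50.2 to 42.9% in T98G (siControl first). In LN-229 it went from 47.0 to 48.5%. Depth went from 52.3 to 101.2 M reads in U251, 69.1 to 72.7 M in T98G and 88.3 to 103.9 M in LN-229. The change of a gene went with the length of its longest transcript, with Spearman's rho of 0.31 in U251, 0.24 in T98G and -0.01 in LN-229 across 12336 genes, which are not independent. TERF2IP has a transcript of 2131 bases. After the trend with length was removed, its change was -0.91 and it passed close to the threshold (limma, adjusted p 0.043). The share of summed CPM on RNAs without a poly(A) tail went from 20.4 to 12.8% in U251, against 11.8 to 13.1% in LN-229 and 10.6 to 9.83% in T98G. With libraries rescaled to the listed genes without these RNAs, the change of TERF2IP was -0.94 and it no longer passed (limma, adjusted p 0.059). Rescaled to all listed genes, the change of TERF2IP was -0.89 and it passed close to the threshold (limma, adjusted p 0.044). The adjusted p of limma was 1.2e-04 on the deposited scale and 0.07 after median centring.

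**Figure D2:**
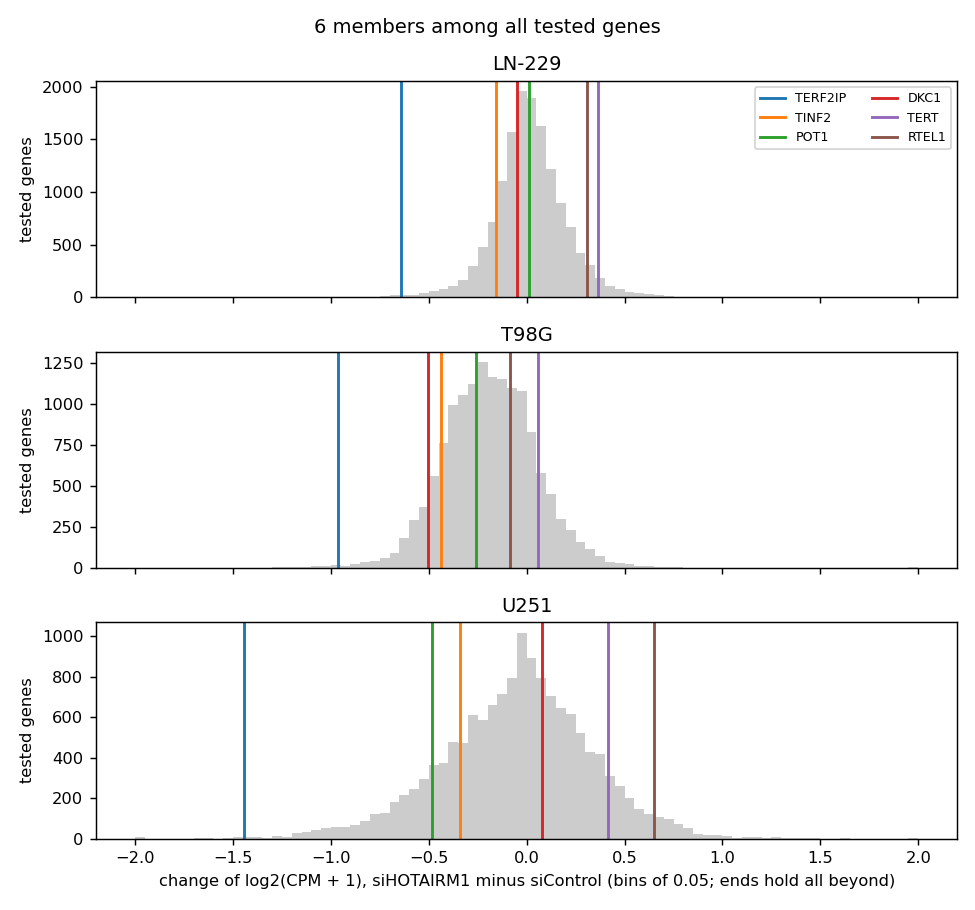
Change of log2(CPM + 1), siHOTAIRM1 minus siControl, of all 14294 tested genes in each cell line (grey, number of genes per bin of 0.05) with 6 members as vertical lines. TERF2IP lies at the low edge in each line, at -0.64, -0.97 and -1.44, and the bulk of T98G sits below 0, at a median of -0.19.

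KARS, whose start lies beside that of TERF2IP, was followed as its neighbour and was chosen after the values were seen. It went from 93.0 to 91.6 CPM in LN-229, from 92.5 to 62.0 CPM in T98G and from 104 to 73.0 CPM in U251. Its fold was 0.985 in LN-229 (0.956 to 1.01), where TERF2IP stood at 0.627. TERF2IP relative to KARS stood at 27.1% in siControl and 17.3% in siHOTAIRM1 in LN-229, 25.5 and 18.8% in T98G, and 42.1 and 21.2% in U251. The ratio therefore went down by a factor of 0.636 (0.593 to 0.683), 0.734 (0.67 to 0.805) and 0.503 (0.468 to 0.542). The exons of both genes share 176 bases on opposite strands, and the library kit does not keep the strand, so reads from these bases cannot be assigned.

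TERF1 and TERF2, the proteins that bind the double-stranded repeats, gave limma estimates close to 0. TERF1 stood at 13.4 against 12.4 CPM in LN-229, 18.2 against 17.8 CPM in T98G and 13.9 against 15.2 CPM in U251 (siControl first). Its limma change was -0.00 (SE 0.14, 95% interval -0.29 to 0.28), with a sign that turns to 0.06 under median centring and 0.14 under rescaling. The table lists 5 TERF1 pseudogenes, which together held 2.68 to 3.68 CPM. How reads were divided between them and TERF1 was not tested. With them summed in, the changes were -0.08, -0.01 and 0.09.

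TERF2 (chromosome 16, 69355567 to 69408571, minus strand) stood at 6.33 against 6.52 CPM in LN-229, 9.89 against 8.29 CPM in T98G and 15.1 against 16.1 CPM in U251. The lines stayed in the same order without overlap, with U251 highest and LN-229 lowest in both conditions. The limma change was -0.03 (SE 0.14, -0.33 to 0.26), and it turns to 0.04 under median centring and 0.11 under rescaling. An interval of this width leaves room for moderate changes of both genes in either direction.

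TERF2IP protein is recruited through TERF2, so the RNAs of this pair were set side by side per kilobase of the longest annotated transcript. The ratio of TERF2IP to TERF2 levels per kilobase was 5.60 (counting interval 5.11 to 6.15) in siControl and 3.41 (3.12 to 3.73) in siHOTAIRM1 in LN-229. In T98G it was 3.36 (3.07 to 3.67) and 1.97 (1.78 to 2.19), and in U251 it was 4.08 (3.77 to 4.43) and 1.35 (1.26 to 1.44). Per kilobase, TERF2IP kept the higher RNA level in each library, with the smallest margin in U251 after knock-down. In CPM, TERF2IP was below TERF2 in that library, at 15.5 against 16.1.

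Of the summed level per kilobase of the 6 shelterin genes, TERF2IP made up 45.4% in siControl and 35.0% in siHOTAIRM1 in LN-229. The shares were 39.4 and 27.7% in T98G and 47.7 and 26.9% in U251. The share of TERF2 went from 11.7 to 19.9% in U251 while its own CPM went from 15.1 to 16.1, and a share depends on all 6 genes. With canonical transcripts, which are shorter for TERF1, TINF2 and ACD, the TERF2IP shares were 37.6 and 28.4%, 33.0 and 22.8%, and 39.5 and 21.2%. The sum over shelterin stood at 26.1 and 21.2, 28.2 and 19.7, and 43.1 and 27.0 CPM per kilobase in LN-229, T98G and U251.

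**Figure D3:**
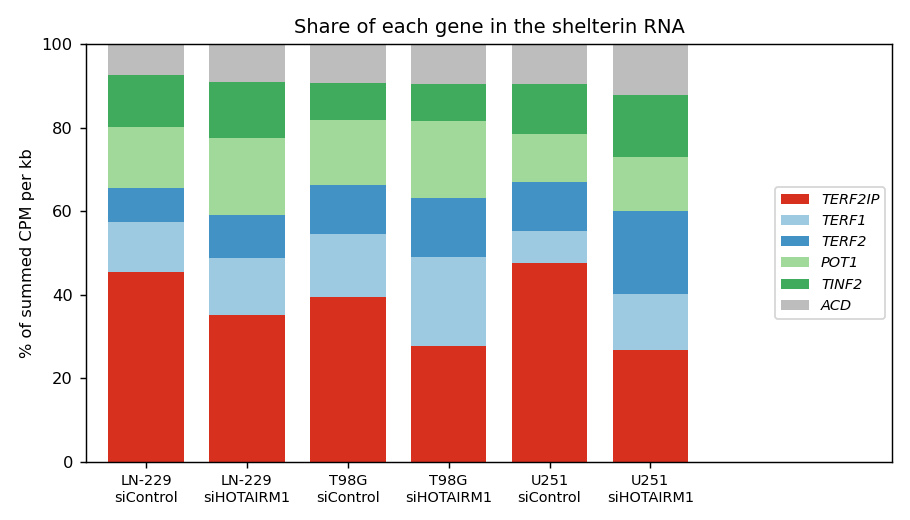
Share of each shelterin gene in the summed CPM per kilobase of longest transcript, in percent, for the 6 libraries. The TERF2IP segment (bottom) shrank from 45.4 to 35.0, from 39.4 to 27.7 and from 47.7 to 26.9%.

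POT1, TINF2 and ACD, which hold the single-stranded end and bridge it to TERF1 and TERF2, had lower values after knock-down in T98G and U251 but did not pass the threshold, and the size of these values depended on the scaling. Rescaled to the listed genes, the changes in T98G and U251 were -0.05 and -0.24 for POT1 (-0.26 and -0.48 as deposited), -0.26 and -0.09 for TINF2 (-0.44 and -0.34), and -0.23 and -0.05 for ACD (-0.41 and -0.29). POT1 (chromosome 7, 124822386 to 124929983, minus strand) stood at 15.1 against 15.2 CPM in LN-229, 17.4 against 14.4 CPM in T98G and 19.8 against 13.8 CPM in U251. Its spread between lines thus narrowed from 15.1 to 19.8 in siControl to 13.8 to 15.2 in siHOTAIRM1. The limma change was -0.24 (SE 0.15, -0.54 to 0.05). POT1-AS1 on the opposite strand reached at most 1.26 CPM.

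TINF2 (chromosome 14, 24238286 to 24242663, minus strand) stood at 11.6 against 10.3 CPM in LN-229, 8.86 against 6.27 CPM in T98G and 18.5 against 14.4 CPM in U251. Each line was lower after knock-down, with folds of 0.887, 0.708 and 0.777, although the libraries of the conditions overlapped across lines. The limma change was -0.31 (SE 0.14, -0.61 to -0.02) and did not pass after adjustment. GMPR2 lies across 957 of its exon bases on the opposite strand and gave folds of 0.927, 0.759 and 0.703, so the reads of this pair cannot be fully separated.

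ACD (TPP1, chromosome 16, 67657512 to 67660810, minus strand) recruits telomerase through TERT. It stood at 4.92 against 4.89 CPM in LN-229, 6.70 against 4.81 CPM in T98G and 10.4 against 8.33 CPM in U251, and the limma change was -0.24 (SE 0.15, -0.53 to 0.06). On the deposited scale the fold was 0.994 (0.874 to 1.13) in LN-229, 0.718 (0.625 to 0.825) in T98G and 0.800 (0.718 to 0.891) in U251. After rescaling, the change in U251 and that in LN-229 were both -0.05. The ratio of POT1 to ACD per kilobase of longest transcript stayed between 1.07 and 2.01 in all libraries, highest in LN-229 and lowest in U251. Which gene stood higher depended on the length used. With canonical transcripts, POT1 and ACD stood at 5.033 and 6.89 CPM per kilobase in U251 siControl and 3.525 and 5.513 in U251 siHOTAIRM1. In T98G these were 4.424 and 4.437, then 3.658 and 3.185. In LN-229 they were 3.854 and 3.254, then 3.883 and 3.234. Lower in all 3 lines were 3 of 9 members (TERF2IP, TINF2 and ACD), against 28.1% of all genes tested. Relative to the median change of each line, or rescaled, POT1 joined them as the fourth, against 22.5% and 16.9% of all genes. For POT1 this rested on LN-229 values of -0.001 and -0.03, where its fold as deposited was 1.01 (0.937 to 1.08).

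**Figure D4:**
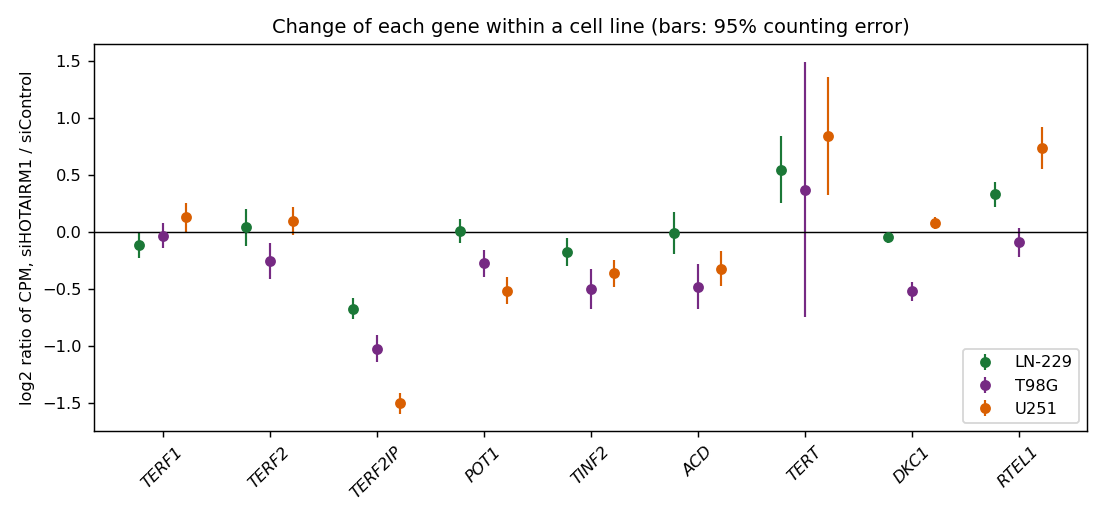
Log2 ratio of CPM, siHOTAIRM1 over siControl, of 9 members in LN-229, T98G and U251, with 95% counting intervals. TERF2IP is below 0 in each line, TERT is above 0 in each line with an interval across 0 in T98G, and DKC1 is below 0 in T98G and above 0 in U251.

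TERT, the catalytic subunit (chromosome 5, 1253147 to 1295068, minus strand), was expressed at low levels with large differences between lines. LN-229 held 1.67 CPM (147 reads) in siControl and 2.43 CPM (253 reads) in siHOTAIRM1. T98G held 0.159 CPM (11 reads) and 0.206 CPM (15 reads), and U251 held 0.727 CPM (38 reads) and 1.30 CPM (132 reads). The order LN-229, U251, T98G was the same in both conditions, and the libraries of different lines did not overlap.

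TERT was higher after knock-down in 3 of 3 lines, by a fold of 1.46 (1.19 to 1.79) in LN-229, 1.30 (0.595 to 2.82) in T98G and 1.79 (1.25 to 2.57) in U251. At the depth of T98G no difference was detectable. The limma change was 0.28 (SE 0.12, 0.04 to 0.52), which did not pass after adjustment. On the deposited scale it was the only member higher in all 3 lines, where 11.4% of all genes were. Relative to the median change of each line, or rescaled, RTEL1 was also higher in all 3, where 23% and 24% of all genes were.

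For the RNA subunit, the row named TERC held almost none of the reads. It stood at 0.0597 CPM in siControl and 0.000245 CPM in siHOTAIRM1 in LN-229, 0.0764 and 0.0725 CPM in T98G, and 0.503 and 0.156 CPM in U251, with 3 reads worth 0.0289 to 0.0574 CPM. This row did not reach the mean of 1 CPM and was not tested. Telomerase-vert held 3.21 and 4.51 CPM in LN-229, 6.54 and 5.96 CPM in T98G, and 16.9 and 5.59 CPM in U251.

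The reads of the TERC row were fractions, such as 5.26 in LN-229 siControl and 26.3 in U251 siControl, yet with Telomerase-vert they summed to 289, 469, 457, 439, 909 and 582 reads in library order, each within 0.02 of a whole number. The Expectation-Maximization step of the quantification divides reads between overlapping rows, and 0.0032 to 2.89% of this sum stood in TERC. Absence of telomerase RNA cannot be read from the TERC row.

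With both rows summed, telomerase RNA stood at 3.27 and 4.51 CPM in LN-229 (fold 1.38, 1.19 to 1.6), 6.62 and 6.04 CPM in T98G (0.912, 0.800 to 1.04) and 17.4 and 5.75 CPM in U251 (0.331, 0.298 to 0.367). U251 siControl stood apart from the other 5 libraries, which lay between 3.27 and 6.62 CPM. The limma change of the Telomerase-vert row was -0.39 (SE 0.19, -0.78 to 0.00) and did not pass.

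The same library also stood high for most of the other short RNAs listed as made without a poly(A) tail, which a poly(A) selection keeps only in part. Of 11 such RNAs 10 were tested and limma called 0, with 5 at an unadjusted p under 0.05 (18.3% of all genes). By the paired statistic of each gene alone 0 were at an unadjusted p under 0.05 (6.27% of all genes). The median change of the 10 was 0.09 in LN-229, then -0.35 for T98G and -1.03 for U251. RN7SK went from 22600 to 9860 CPM, RMRP from 1432 to 853 CPM and SCARNA10 from 283 to 87.9 CPM in U251. SCARNA2, whose limma change of -0.59 was the largest of the list, went from 46.7 to 16.1 CPM there. RNY1 went the other way in U251, from 11.3 to 14.4 CPM, and was at 13.9 CPM in LN-229 siControl. The part of this shift in the telomerase RNA values was not tested.

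**Figure D5:**
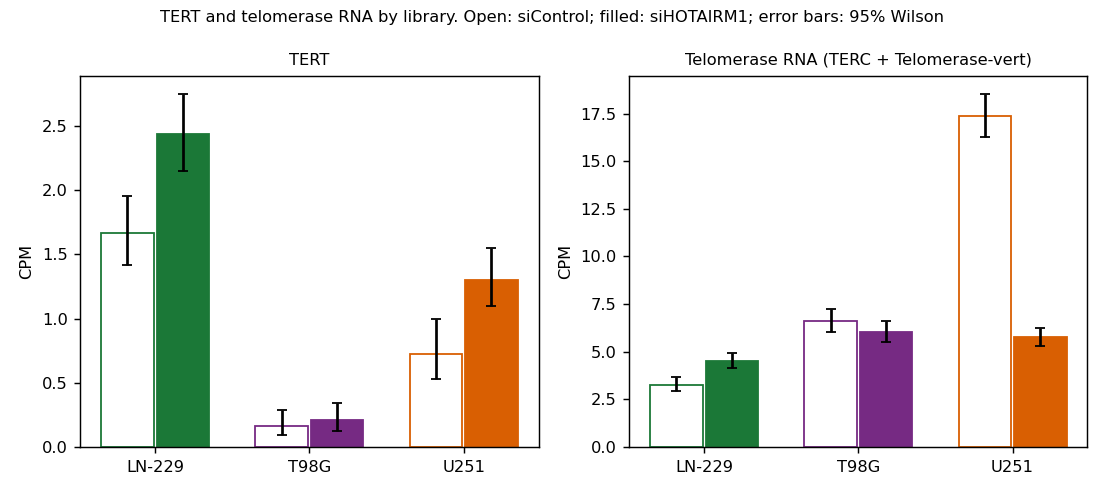
CPM of TERT (left) and of telomerase RNA as the sum of the TERC and Telomerase-vert rows (right) in siControl (open bars) and siHOTAIRM1 (filled bars), with 95% Wilson intervals. TERT was highest in LN-229 at 1.67 and 2.43 CPM, and telomerase RNA was highest in U251 siControl at 17.4 CPM and stood at 5.75 CPM after knock-down.

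DKC1 (chromosome X, 154762742 to 154777689, plus strand), the pseudouridine synthase subunit bound to TERC, was the most abundant member in CPM in each library. It stood at 67.0 against 64.8 CPM in LN-229, 38.9 against 27.1 CPM in T98G and 81.6 against 86.3 CPM in U251. T98G was lowest in both conditions. The folds were 0.967 (0.934 to 1.002), 0.698 (0.659 to 0.740) and 1.06 (1.02 to 1.10), so the counting intervals of T98G and U251 lay on opposite sides of 1. The limma change was -0.16 (SE 0.15, -0.46 to 0.15) and was 0.02 without T98G. SNORA36A, SNORA56 and MIR664B lie within DKC1 and have rows of their own.

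RTEL1 (chromosome 20, 63657810 to 63696253, plus strand) stood at 12.8 against 16.1 CPM in LN-229, 14.1 against 13.3 CPM in T98G and 5.82 against 9.69 CPM in U251. Its folds were 1.26 (1.17 to 1.36), 0.939 (0.859 to 1.03) and 1.67 (1.47 to 1.89), and the limma change of 0.29 (SE 0.15, -0.02 to 0.60) did not pass. RTEL1 shares 4522 exon bases with the read-through gene RTEL1-TNFRSF6B, which held 2.48 to 6.07 CPM and 26.7 to 29.9% of the pair's reads. Summed, the pair stood at 17.7 and 22.2, 20.0 and 18.5, and 8.30 and 13.2 CPM, with the same directions in each line.

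By size within a line, lower by at least 0.5 on the log2(CPM + 1) scale was 1 of 9 members in LN-229 (TERF2IP, background 0.993%), 2 in T98G (TERF2IP and DKC1, 8.26%, and TERF2IP alone relative to the median or rescaled) and 1 in U251 (TERF2IP, 11.9%). RTEL1 was higher by at least 0.5 in U251, at 0.65, as were 6.56% of all genes. On the deposited scale the 5 members that did not keep 1 direction over the lines were TERF1, TERF2, POT1, DKC1 and RTEL1. Relative to the median or rescaled, POT1 (lower) and RTEL1 (higher) kept 1. For POT1 this rested on LN-229 values of -0.001 and -0.03, near no change.

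Per kilobase of longest transcript, DKC1 and TERF2IP were the top pair of members in each library, and the TERT row was last in T98G and U251 while the TERC row was last in LN-229. With canonical transcripts DKC1 was first in each library, and in U251 siHOTAIRM1 TINF2 came before TERF2IP. Between lines, U251 had the highest mean CPM of TERF2, TINF2, ACD and DKC1 with no overlap of its libraries with the next line. The libraries of neighbouring lines overlapped for TERF2IP and POT1.

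The pattern of each member over the 6 libraries was compared with those of all tested genes by Pearson's r of log2(CPM + 1), a description in which libraries of 1 line share their background and the highest of many values are named, 2 for each member except DKC1. For TERF2IP these were TMEM38B (r = 0.9956) and NEK7 (0.9839). TMEM38B, an ion channel of the endoplasmic reticulum, stood at 13.9 against 11.5, 13.5 against 10.3 and 16.4 against 11.2 CPM. For TERT they were FUT4 and FAM210B, for RTEL1 CAMKK2 and MZF1-AS1, for POT1 COPS5 and CETN2, and for TINF2 SLC39A9 and VTI1B. For DKC1, HEATR1 is named. For ACD they were TUBGCP2 and QRSL1, for TERF1 AFF1 and RP11-174G6.5, and for TERF2 SH3RF3 and DUSP1, with r between 0.9896 and 0.9995 for the genes named other than NEK7.

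Of 71 other genes of telomere biology 70 were listed and tested, and limma called 0. At an unadjusted p under 0.05 were 6 (TEN1, PRIM1, PRIM2, NHP2, NBN and NSMCE2), which is 8.57% against 18.3% of all genes. The paired statistic of each gene alone called 0 of all genes tested, so it could call none here. Its unadjusted p was under 0.05 for 2 of the 70, where 6.27% of all genes were. The median change of the 70 was -0.08 against -0.07 for all genes tested. On the deposited scale 8 of the 70 (11.4%) were higher and 23 (32.9%) lower in all 3 lines, against 11.4% and 28.1% of all genes. Relative to the median change, 13 (18.6%) were higher and 14 (20.0%) lower, against 23% and 22.5% of all genes. Rescaled to the listed genes, 15 (21.4%) were higher and 6 (8.57%) lower, against 24% and 16.9%. In the CST complex and its primase, which fill in the strand opposite the overhang, the changes furthest from 0 were those of the primase subunits PRIM2 (-0.38, SE 0.14) and PRIM1 (-0.31, SE 0.15). PRIM2 stood at 21.7 against 17.9, 23.2 against 18.9 and 31.3 against 20.4 CPM.

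Among 16 genes of telomerase assembly, NHP2, a partner of DKC1 in the same particle, had the change furthest from 0 (-0.47, SE 0.15). It stood at 29.2 against 27.5 CPM in LN-229, 25.0 against 16.7 CPM in T98G and 76.0 against 44.3 CPM in U251. NOP10, another subunit of that particle, followed at -0.29 (SE 0.15), with 32.3 against 35.5, 18.4 against 13.96 and 61.1 against 38.7 CPM. In U251, the RNAs of DKC1 and GAR1 (6.34 against 6.56 CPM) were thus not lower, whereas those of NHP2 and NOP10 were. These 4 RNAs encode the proteins of the particle, and the split rests on a single pair of libraries. Changes in that pair went with transcript length (Spearman's rho 0.31), and the part of length in this split was not tested.

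Among factors that act at chromosome ends, NBN of the MRE11 complex (-0.40, SE 0.15) and XRCC5, the larger subunit of Ku (-0.31, SE 0.18), were furthest from 0. Among genes of recombination and telomeric chromatin these were NSMCE2, a SUMO ligase of the SMC5/6 complex (-0.43, SE 0.16), and the histone chaperone ASF1A (-0.29, SE 0.14). Among 9 transcription factors that act on TERT they were SP3 and MXD1, at -0.18 each, and MYC stood at 20.4 against 18.4, 19.7 against 15.2 and 7.56 against 9.08 CPM. For comparison, of 13 proliferation genes 0 passed in the same limma fit, with 2 at an unadjusted p under 0.05 (18.3% of all genes). By the paired statistic 0 of the 13 were at an unadjusted p under 0.05 (6.27% of all genes). The summed level of the 13 was 1580 against 1649 CPM in LN-229, 1553 against 1362 CPM in T98G and 1517 against 1525 CPM in U251. MKI67 (0.35) and PCNA (-0.34) were the furthest from 0 in opposite directions.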

How the data were processed

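The deposited values are CPM of 59074 genes, to which 0.0001 was added by the authors. The authors prepared libraries from 500 ng of total RNA with a TruSeq v2 kit, sequenced 101 cycles, and in Partek Flow aligned to hg38 with STAR 2.4.1d (submitters' processing notes) and quantified Ensembl genes by Expectation-Maximization, which splits reads between overlapping genes. Because 71.9 to 76.9% of values were whole reads (tolerance 0.02), no count test was used. Depth came from the worth of 1 read, and 3 reads were taken as the floor.

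Log2(CPM + 1) of the 14294 genes that averaged 1 CPM or more was fitted with limma 3.58.1 (R 4.3.3, mean-variance trend, Benjamini-Hochberg, two-sided, threshold 0.05). The cell line was the block, and pairs come from the same cell line. Levels carry 95% Wilson intervals of the reads. On simulated data of 14294 genes, of which 200 were raised by 1 (log2), the limma fit called 86 of the raised genes and 0 of the rest. The simulated noise was independent for each gene and library around the siControl values. Shifts shared by many genes of a library were not simulated, so this gives no rate of false calls in these data. GENCODE v44 gave positions and lengths, and RefSeq the promoter windows. The remaining steps ran in Python 3.11.15 (pandas 2.3.3, numpy 2.4.6, matplotlib 3.10.9).

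The members and lists were chosen with earlier results of these data known. The text names all members, the pair of genes with the largest change in each telomere list (those past the threshold first), the pair most like each member (1 gene is not reported here), and neighbours that share reads or position. Alternatives were no block, a paired statistic per gene, pseudocount 0.1, no filter or a mean of at least 5 CPM, median centring, rescaling to listed genes and leaving out each line. Removal of the length trend, rescaling without RNAs lacking a poly(A) tail and canonical lengths were added after the data were seen.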

Additional observations from a re-analysis of the deposited data

Results flagged for a closer look

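DKC1 changed in opposite directions in T98G (-0.50) and U251 (0.08), a difference of -0.58 on the log2(CPM + 1) scale (-0.581), with counting intervals on opposite sides of no change. The Telomerase-vert row, which shares its bases with TERC, changed in opposite directions in LN-229 (0.39) and U251 (-1.44), a difference of 1.83 (1.827). The sum of the TERC and Telomerase-vert rows differed likewise, by 1.81 (1.813). With 1 library per line and condition, none of these differences was tested.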

How the results depend on the processing

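limma called 286 genes, 20.6% of them higher. The count was 683 with a pseudocount of 0.1, 607 with a mean of at least 5 CPM, 14 after median centring (28.6% higher), 25 after rescaling to listed genes (40.0% higher), 19 after rescaling without RNAs lacking a poly(A) tail, 59 without the length trend, and 0 with the paired statistic per gene or no filter. Leaving out 1 cell line gave 0 to 270 genes, with 0 without T98G and 149 without U251. Without the replicate block 0 genes passed, against 286 with it. Members past the threshold went from 1 to 0 without the block, with the paired statistic, with no filter, after centring, after rescaling without RNAs lacking a poly(A) tail and without T98G (range 0 to 1 when leaving out 1 line). Other telomere genes went from 0 to 1 (NHP2) with a pseudocount of 0.1 and with a mean of at least 5 CPM. TERF2IP stayed between -1.20 and -0.80 under all of these, and its call was lost under 6 of 12. The cause of each lost call was not tested.

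TERF1 turned positive after centring (0.064), rescaling (0.14), rescaling without RNAs lacking a poly(A) tail (0.101) and removal of the length trend (0.055), and lay between -0.067 and 0.045 when 1 line was left out (0.009 without T98G). TERF2 turned positive after the same scalings (0.036, 0.108 and 0.069) and removal of the length trend (0.055), and lay between -0.096 and 0.065 when 1 line was left out. DKC1 lay between -0.275 and 0.016, the latter without T98G. Of 90 changes within a line under an alternative, 67 moved by less than the counting error and 23 by more. Depth limited TERT in T98G (11 and 15 reads) and the TERC row.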
